A study of Mus musculus with 29 samples.

Results

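The iG+P-only sites are 9017 stretches of the mouse genome at which a Pou4f3 peak was called in embryoid bodies carrying Gfi1 and Pou4f3 together and in none of the other 8 peak lists of the study. Windows of 300 bp centred on the summits of all 9 lists were joined into a site where they shared at least 1 bp, which gave 78408 sites. The 9017 sites were chosen by the presence of a peak in the iG+P Pou4f3 list and its absence from the other lists. Their presence, absence and peak strength are therefore a description and carry no test. Sequence and position in the genome played no part in the choice.

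Pou4f3 is a POU-homeodomain transcription factor that binds AT-rich DNA and is needed for the survival and maturation of inner ear hair cells. Gfi1 is a zinc-finger repressor that acts in the same cells and in blood, and it binds a short element built around AATC. Atoh1, the third factor of the study, is a bHLH activator that starts hair cell formation through E-boxes.

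Chromatin immunoprecipitation followed by sequencing (ChIP-seq) was done in derivatives of the A2loxCre mouse embryonic stem cell line. Each derivative carries a doxycycline-inducible cassette with mVenus and with Pou4f3 alone (iPou4f3), Atoh1 alone (iAtoh1), Gfi1 and Pou4f3 (iG+P), Gfi1 and Atoh1 (iG+A), Pou4f3 and Atoh1 (iP+A) or all 3 factors (iGPA). All lines were differentiated as embryoid bodies, which are aggregates of many cell types, received 2 µg/ml doxycycline for 48 h from day 4 and were collected on day 6. The factor is driven by a transgene in whichever cells of the aggregate are induced, and these are not hair cells taken from the ear. The paper reports hair cell-like cells from iGPA and a partial hair cell programme in iG+P. In iG+P the marker Lhx3 was seen in a minority of induced cells after 4 days of doxycycline. Peak lists do not allow a check of cell-type markers. Pou4f3 was precipitated through its Myc tag in 8 libraries of 4 lines and Atoh1 through a FLAG tag in 4 lines. Gfi1 was precipitated with its own antibody in iGPA only. Gfi1 binding in iG+P was not measured here.

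The authors merged the 2 ChIP replicates of each line and antibody before they called peaks, except that the Gfi1 list, one of the lists used to exclude sites, rests on 1 library. No value has a spread between replicates, and the intervals below cover counting error only. The condition "with Gfi1" also holds for iGPA, whose list the rule excludes, so the sites are named here by the list that holds them and not as Gfi1-dependent sites.

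The sequences below show what the class held. The first 3 are the members with the highest −log10 p that had an exact match to the Pou4f pattern ATAATTAAT within 25 bp of the summit and lay outside repeated sequence, a set chosen after the values were seen. Sequences are the plus strand of mm9, 60 bases to either side of the summit, with every match to the pattern (at most 1 mismatch, either strand) in capitals.

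Cdh18 intron, chr15:22996632-22996752: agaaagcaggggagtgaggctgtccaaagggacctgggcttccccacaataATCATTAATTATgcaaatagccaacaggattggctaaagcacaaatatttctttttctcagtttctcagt
Chchd4 intron, chr6:91415643-91415763: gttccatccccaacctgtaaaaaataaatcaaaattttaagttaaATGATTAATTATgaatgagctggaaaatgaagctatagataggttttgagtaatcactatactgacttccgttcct
Intergenic, chr3:16005311-16005431: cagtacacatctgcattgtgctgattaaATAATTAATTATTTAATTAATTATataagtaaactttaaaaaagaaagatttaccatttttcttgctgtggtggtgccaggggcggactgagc

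The site in Cdh18 had a fold enrichment of 4.16, a −log10 p of 13.6 and 37 fragments over a local background of 8.14. The site in Chchd4 had the same peak values. The intergenic site on chromosome 3 had a fold enrichment of 4.05 and 36 fragments. In all 3 the nearest match lay 2 to 13 bp from the summit. Overlapping matches on opposite strands made up the runs of capitals.

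The next set was chosen for the absence of the pattern and a high fold enrichment. It holds the 3 members without the Pou4f pattern that had the highest fold enrichment outside tandem repeats of short units, shown in the same way.

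Intergenic, chr1:159807411-159807531: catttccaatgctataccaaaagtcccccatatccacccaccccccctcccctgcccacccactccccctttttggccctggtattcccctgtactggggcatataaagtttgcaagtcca
Rsph3b intron, chr17:7140616-7140736: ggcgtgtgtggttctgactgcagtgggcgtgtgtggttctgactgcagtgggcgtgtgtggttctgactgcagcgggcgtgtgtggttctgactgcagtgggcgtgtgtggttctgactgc
Intergenic near Smarcd3, chr5:24118886-24119006: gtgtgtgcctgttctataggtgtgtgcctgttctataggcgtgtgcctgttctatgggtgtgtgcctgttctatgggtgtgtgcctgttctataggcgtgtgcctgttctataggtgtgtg

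The chromosome 1 site had a fold enrichment of 8.16, a −log10 p of 150.6 and 274 fragments. Its local background was 32.7 fragments, against the usual 8.14, and its sequence reached the ceiling of the count of genome copies. The Rsph3b site had a fold enrichment of 6.79 and the Smarcd3 site 6.35. Their sequences repeat a unit of 25 bp and a unit of 19 bp, with 97.9% and 94.1% of bases equal to the base 1 unit further on, and these units are longer than the 12 bp that the tandem repeat search covered.

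The iG+P list was the longest of the 4 Pou4f3 lists, with 32632 kept peaks in 31784 sites. Of these sites, 28.4% (95% interval 27.9 to 28.9, Clopper-Pearson) were in no other list. The same share was 20.3% for iPou4f3, 12.3% for iGPA and 11.7% for iP+A. The other iG+P sites fell into 19344 shared with another Pou4f3 list, here called shared sites, and 3423 that coincided with Atoh1 or Gfi1 peaks only. The matching classes of the other lists held 4498 iPou4f3-only, 2304 iGPA-only and 1968 iP+A-only sites. Of the members, 8978 were built from 1 peak and 39 from 2 peaks.

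Members were weak peaks. Their fold enrichment, the caller's ratio of ChIP to local background with 1 added to each, had a median of 2.74 and quartiles of 2.52 and 2.96, against a median of 3.39 at shared sites. Their median −log10 p was 5.80, against 9.10 at shared sites. A median of 24 fragments covered the summit of a member and 30 that of a shared site. Median peak length was 115 bp and 195 bp, respectively. The iPou4f3-only, iP+A-only and iGPA-only sites had median fold enrichments of 2.93, 2.72 and 3.35. The usual background was 8.14 fragments in iG+P, 7.83 in iP+A, 7.41 in iPou4f3 and 5.87 in iGPA.

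The share of members fell with strength. Members made up 56.8% of the iG+P sites with a −log10 p under 5, 41.7% of those from 5 to 7, 21.7% from 7 to 10 and 7.77% from 10 to 15. At 20 or more they were 27 of 3382 sites, or 0.80%. When the iG+P list alone was shortened to its 17082 strongest peaks, the length of the shortest other Pou4f3 list, 2029 members were left. At a −log10 p of 10 or more, 449 were left.

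**Figure D1:**
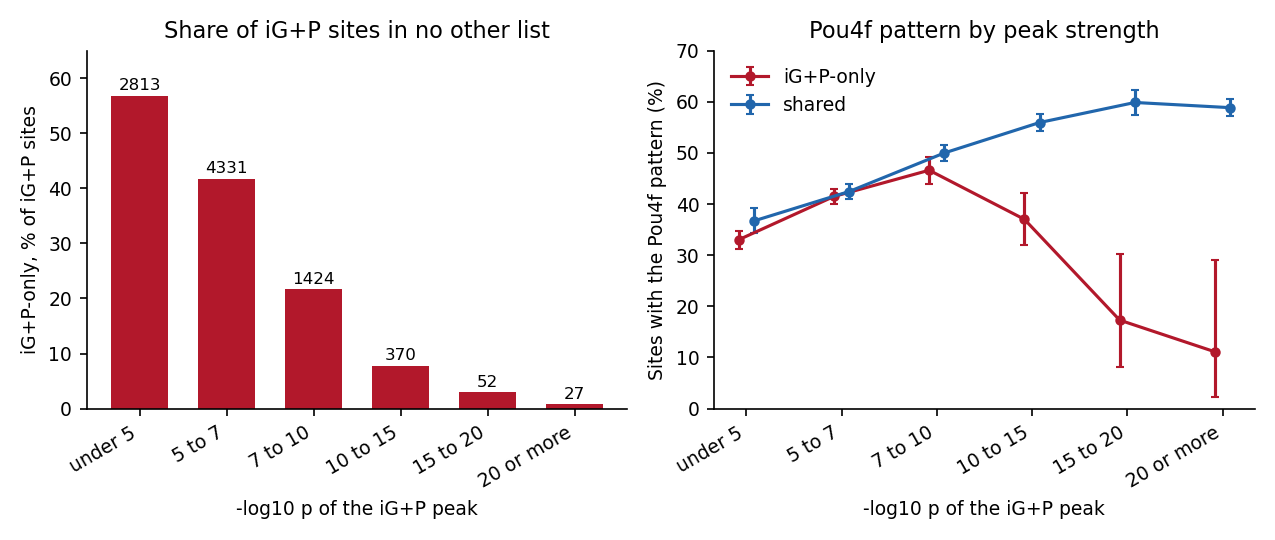
Left, iG+P-only sites as a percentage of all sites with an iG+P Pou4f3 peak, by the −log10 p of that peak, with the number of members above each bar. Right, percentage of iG+P-only and shared sites with the Pou4f pattern in the same classes (bars, 95% Clopper-Pearson intervals). The classes lie close together up to a −log10 p of 10 and part above it, and in the last class members stand at 11.1% and shared sites at 58.9%.

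The Pou4f pattern, searched with at most 1 mismatch in the 250 bp around the summit, was found at 3539 of 9017 members. This is 39.2% (38.2 to 40.3), against 10.5% in windows of the same length 1 kb to either side. Shared sites had it at 50.5%, iGPA-only sites at 52.5%, iPou4f3-only sites at 28.9% and iP+A-only sites at 23.1%. Their flanks lay between 9.93% and 12.4%. The 3423 iG+P sites that coincided with Atoh1 or Gfi1 peaks only had it at 7.65%, below their flanks at 9.39%.

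Members thus fell below shared sites by 11.3 percentage points (Newcombe 95% interval of the difference −12.5 to −10.0) and below iGPA-only sites by 13.2 points (−15.5 to −10.9). They lay 10.3 points above iPou4f3-only sites (8.63 to 12.0) and 16.2 points above iP+A-only sites (14.0 to 18.3). The difference from shared sites kept its sign in all alternatives but not its size. It was −22.1 points when shared sites with an Atoh1 or Gfi1 peak were left out, −19.7 with 100 bp windows, −4.42 with 1000 bp windows and −6.56 without the members that had a called but left-out peak of any other list. Leaving those members out, with the other classes unchanged, also changed the difference from iGPA-only sites to −8.52 points. Each of the 4 differences as first given had the same direction on 20 of 20 chromosomes. The difference from iPou4f3-only sites was −0.341 points (−2.49 to 1.80) once summits within 1 kb of a transcription start were left out. Among distal sites the shares were 43.2% of members and 43.6% of iPou4f3-only sites. At promoters they were 14.0% and 5.40%.

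In all, 28 features were compared with 4 classes, with an interval for each difference. The 95% interval excluded 0 in 64 of them, and an interval widened for the number of comparisons excluded 0 in 45, among them the 4 differences of the Pou4f pattern.

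**Figure D2:**
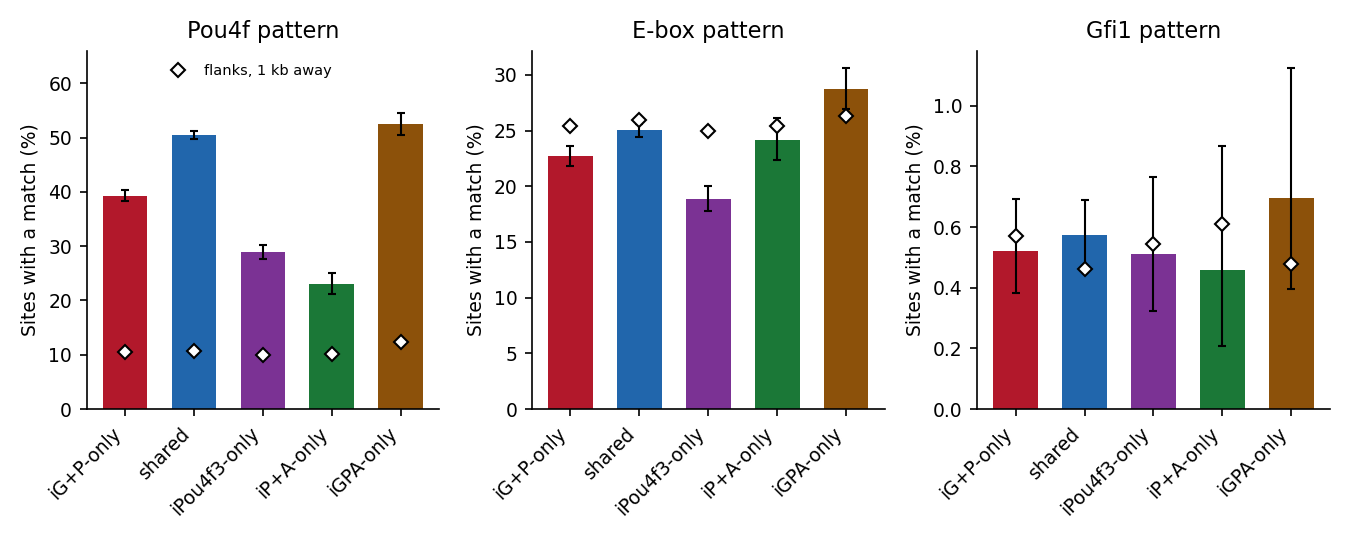
Percentage of sites in each class with a match to the Pou4f, E-box and Gfi1 patterns in 250 bp around the summit (bars with 95% Clopper-Pearson intervals) and in windows 1 kb away (diamonds). For the Pou4f pattern members, shared sites and the 3 other single-list classes lie above their flanks, with members at 39.2%, while for the Gfi1 pattern all classes lie between 0.457% and 0.694%.

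Peak strength moved with this difference. In 4 classes of −log10 p cut at the quartiles of the iG+P list, the weakest members had the pattern at 35.2% and shared sites of like strength at 38.0%, a difference of −2.78 points (−5.09 to −0.49). In the second class the shares were 43.4% and 44.4%, and the difference of −1.07 points (−3.27 to 1.14) could not be told from 0. In the third they were 44.6% and 52.4%, a difference of −7.85 points (−10.98 to −4.69). In the strongest class, above a −log10 p of 11.6, 221 members had the pattern at 25.8% and 6931 shared sites at 58.2%, a difference of −32.4 points (−37.8 to −26.1).

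Repeated sequence, with at least 20 genome copies, was more frequent among strong members. It held 51.9% of the 27 members with a −log10 p of 20 or more and 55.8% of the 52 members from 15 to 20, against 24.7% of the 2813 members under 5. Tandem repeats of short units took 14.8% of the 27 strongest members and 0.675% of the weakest.

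Matches to the pattern were densest at the summit. The match nearest to the summit lay at a median distance of 28 bp in members and 18 bp in shared sites. Within 25 bp were 47.5% (45.9 to 49.2) of the nearest matches in members and 61.7% (60.8 to 62.7) in shared sites. In the 20 bp on either side of the summit members held 11.3 and 11.5 matches per 100 sites, against 0.909 to 1.47 per 20 bp at distances over 300 bp. A second match was found at 15.6% of all members and 20.4% of shared sites.

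**Figure D3:**
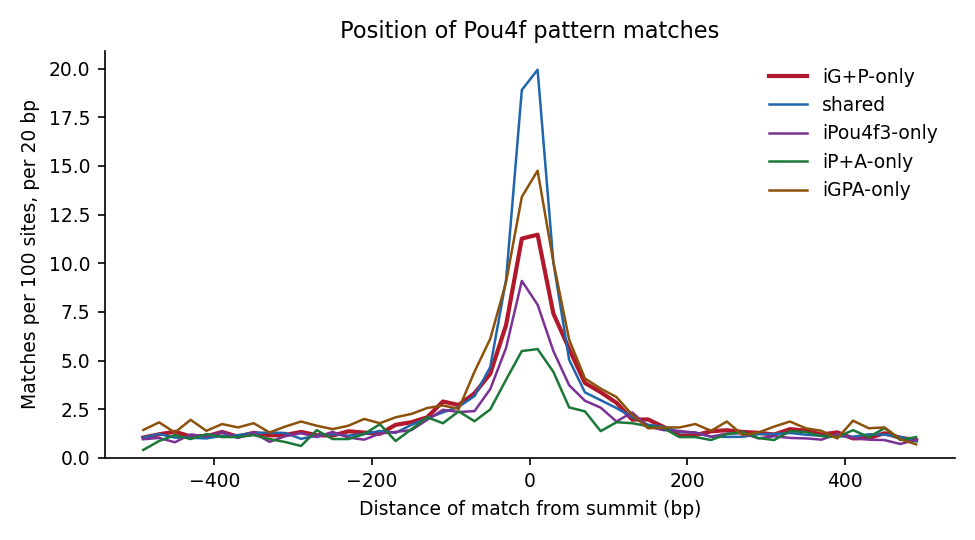
Matches to the Pou4f pattern per 100 sites and per 20 bp (vertical axis) by distance from the summit in bp (horizontal axis), for each class. Members rise to 11.5 matches per 100 sites at the summit, between iPou4f3-only sites at 9.09 and iGPA-only sites at 14.8.

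The letters of the matches were compared with the flanks. The most frequent form in members was ATAAATAAT, found at 10.3% of members and 1.12% of their flanks. The exact pattern ATAATTAAT was found at 6.62% and 0.593%, ATTATTAAT at 6.40% and 0.571%, and ATAATTTAT at 6.31% and 0.632%. These 4 forms were 9.23 to 11.2 times as frequent at the summit as in the flanks. In shared sites they were found at 13.6%, 9.61%, 9.85% and 8.93%, in the same order. As a ratio of shared sites to members, though not in points, other forms differed more. ATAATTCAT was found at 3.13% of members and 5.94% of shared sites, and ATAATTGAT at 1.63% and 2.98%.

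Words of 6 letters were counted without reference to any known factor. Among all members, the 5 words with the highest ratio of summit to flank had ratios of 2.89 to 3.01, led by CGGACG, and the other 4 held only C and G. All 5 had higher ratios in shared sites, from 3.71 to 5.00. The highest word of A and T only was ATTAAT, at 21.98% of members and 8.30% of flanks. With promoters left out, a description added after the values were seen, the first 5 words held only A and T and had ratios of 1.79 to 2.81. ATTAAT led them, at 24.1% of distal members against 8.57% of flanks. The word after these was GCATTA, found at 13.9% of distal members against 7.79% of flanks, and at 26.3% of distal shared sites.

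The Gfi1 pattern, AATCACAGC or AATCACTGC, was found at 47 of 9017 members, or 0.521% (0.383 to 0.692), and at 0.571% of their flanks. Shared sites had it at 0.574%, a difference of −0.0526 points (−0.227 to 0.144). iPou4f3-only sites, from a line with no Gfi1 transgene, had it at 0.511%, a difference of 0.00990 points (−0.276 to 0.251). The shorter core AATCNC was found at 31.6% of members, 30.3% of shared sites and 33.7% of the members' flanks. It lay 1.27 points (0.118 to 2.43) above shared sites and 3.16 points (1.52 to 4.78) above iPou4f3-only sites, and only the second of these held with the interval widened for all comparisons. Among distal sites, however, the core was found at 32.5% of members, 32.6% of shared sites and 32.5% of iPou4f3-only sites. At promoters the shares were 26.1%, 20.2% and 21.8%.

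Of the 2 members with the highest −log10 p and a Gfi1 pattern, the one on chromosome 1 also had Pou4f matches at the summit. It is shown in the window that was searched, with the Gfi1 pattern in capitals, and it lay 81066 bp from the nearest start.

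Intergenic, chr1:15990102-15990352, plus strand of mm9: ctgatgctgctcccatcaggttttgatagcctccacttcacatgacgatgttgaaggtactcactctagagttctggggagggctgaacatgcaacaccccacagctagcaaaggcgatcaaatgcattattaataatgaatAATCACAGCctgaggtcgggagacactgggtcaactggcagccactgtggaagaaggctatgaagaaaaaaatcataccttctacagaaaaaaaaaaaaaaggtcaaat

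Its fold enrichment was 3.50 and its −log10 p 9.70. The other lay 4135 bp from the start of Olfr624, an olfactory receptor gene, in sequence at the ceiling of the copy count, with a fold enrichment of 3.27 and no Pou4f pattern.

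The E-box, CAGCTG or CAGATG, was found at 22.7% of members and 25.4% of their flanks. Shared sites had it at 25.01%, a difference of −2.30 points (−3.35 to −1.23), but this difference was 2.02 points (0.920 to 3.13) in the opposite direction when shared sites with an Atoh1 or Gfi1 peak were left out. The iGPA-only sites, from a line with Atoh1, had it at 28.7%, and the difference was −6.02 points (−8.09 to −4.01). Pou4f and E-box patterns occurred together at 8.69% of members and 13.4% of shared sites.

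The rest of the patterns stand for factors that were not part of the study. The T-box pattern AGGTGTGA was found at 1.08% of members, 0.915% of their flanks and 3.13% of shared sites, a difference of −2.06 points (−2.38 to −1.72) with the same direction on 20 of 20 chromosomes. The SOX pattern ACAATGG was found at 4.04% of members and 5.63% of shared sites, a difference of −1.60 points (−2.11 to −1.07). Both differences varied with peak strength. In the weakest of the 4 classes of −log10 p, SOX was 1.16 points (0.245 to 2.03) above shared sites, and the T-box interval held 0 (−0.486 to 0.497). In the second class the SOX interval held 0 (−1.18 to 0.600), and the T-box difference was −0.792 points. In the strongest class SOX was at −6.05 points (−7.34 to −3.24) and T-box at −4.71 (−5.37 to −2.59). The octamer ATGCAAAT, a POU element of pluripotent cells, was found at 2.32% of members and 2.11% of shared sites, and the interval of the difference held 0. The intervals also held 0 for the AP-1, GATA, CTCF, NF-Y, CRE and RFX patterns against shared sites.

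Members more often lay in repeated sequence than shared sites did. The median number of genome copies of the 16-letter words around the summit was at least 20 at 2225 members, or 24.7% (23.8 to 25.6), and at 14.4% of shared sites. The difference was 10.2 points (9.22 to 11.3), in the same direction on 20 of 20 chromosomes. The share was 9.47% at iPou4f3-only and 7.20% at iGPA-only sites. The share at iP+A-only sites was 27.3%, a difference of −2.66 points (−4.86 to −0.538) that did not hold with the interval widened for all comparisons and had this direction on 12 of 20 chromosomes. The flanks of members were in repeated sequence at 21.1% and those of shared sites at 14.0%.

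Repeated members rarely had the Pou4f pattern. It was found at 17.7% of members with 20 or more copies, against 8.43% in their flanks, and at 46.3% of members with fewer copies, against 11.2%. In shared sites the shares were 26.1% and 54.7%. The difference between members and shared sites was −8.33 points (−9.74 to −6.92) under 20 copies and −8.39 points (−10.7 to −6.11) at 20 or more.

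**Figure D4:**
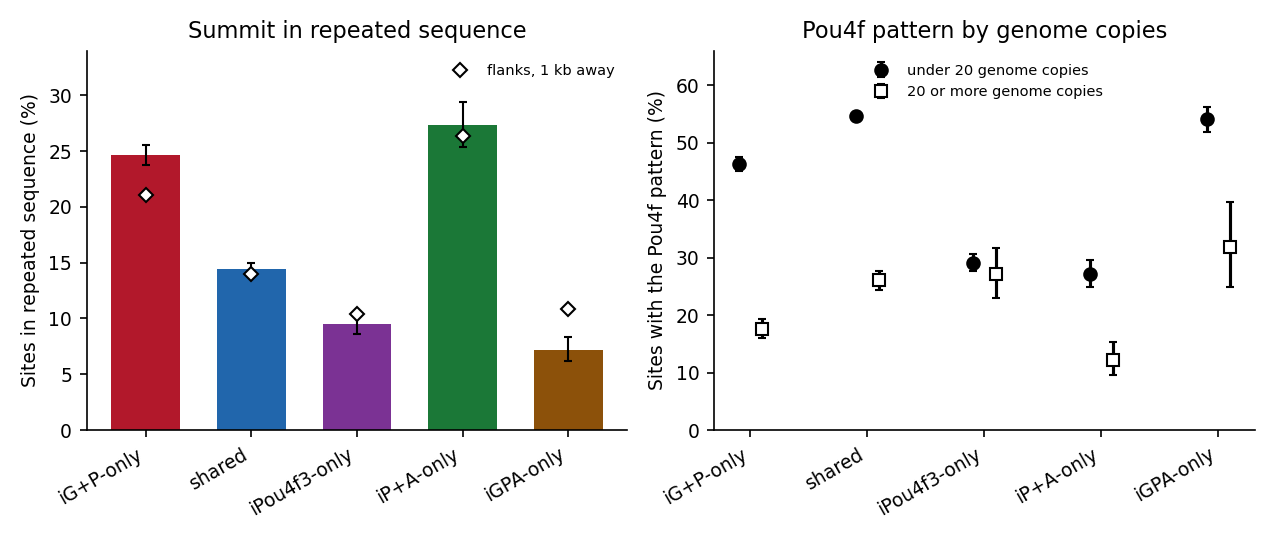
Left, percentage of sites in each class whose summit lay in sequence with at least 20 genome copies (bars with 95% intervals; diamonds, windows 1 kb away). Right, percentage of sites with the Pou4f pattern under 20 copies (filled circles) and at 20 or more (open squares), with 95% intervals. Members stand at 46.3% and 17.7% in the right panel.

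Another pattern marked a group of members in repeated sequence. YY1, a zinc-finger factor bound at many promoters and at some retroelements, has the pattern AAGATGGCG, which was found at 100 members, or 1.11%, and at 0.357% of shared sites. The difference was 0.752 points (0.534 to 1.00). The pattern was found at 0.934% of iPou4f3-only sites, a difference of 0.175 points (−0.205 to 0.515) whose interval held 0, and at 1.37% of the iG+P sites that coincided with Atoh1 or Gfi1 peaks only. Of these 100 members, 83 lay in repeated sequence, 82 shared a word of 24 letters with another, 13 lay within 1 kb of a start and 2 had the Pou4f pattern. Their median G+C content was 64.7%, against 41.8% over all members. Of the members holding the 24-letter word found in the most, 57, the one with the highest −log10 p is shown with the YY1 pattern in capitals.

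Intergenic, chr16:84942839-84943089, plus strand of mm9: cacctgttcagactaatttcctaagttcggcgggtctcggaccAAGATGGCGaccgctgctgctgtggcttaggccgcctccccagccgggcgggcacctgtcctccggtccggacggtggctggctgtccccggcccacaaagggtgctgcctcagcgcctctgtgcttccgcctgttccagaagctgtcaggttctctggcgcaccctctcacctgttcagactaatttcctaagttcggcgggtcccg

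It had a fold enrichment of 3.50 and a −log10 p of 9.70, and the nearest start, that of Gabpa, lay 82674 bp away. No peak of YY1 was measured here, so the match is a description of the sequence.

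Members were not spread evenly over the genome. Of 2290 bins of 1 Mb with at least 1 member, the median held 3, and 22 bins held 20 or more. These 22 bins, here called dense bins, held 837 members, or 9.28%. The bins were picked for their number of members, which raises this share, so the shares of the other classes are given as a description only. The bins held 7.37% of shared sites, 2.09% of iPou4f3-only sites, 2.08% of iGPA-only sites and 13.4% of iP+A-only sites. The 3423 iG+P sites that coincided with Atoh1 or Gfi1 peaks only had 39.6% of their number there. All 9 lists had peaks in every dense bin but the one at the Klra genes, where 8 did.

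A run of 6 consecutive dense bins covered megabases 3 to 8 of chromosome 14 and held 29 to 79 members each, beside gene models named Gm2888, Gm3002 and the like. The others included bins at the Mup genes of chromosome 4 with 27 members, at the Cyp3a genes of chromosome 5 with 26, at the Klra genes of chromosome 6 with 26 and at Vmn2r genes of chromosome 7 with 31. These are families of closely related genes. The authors had removed reads of low mapping quality before calling peaks, and whether read mapping played a part in these bins was not tested. Not all dense bins lay at such families. The bin at megabase 30 of chromosome 17, with Btbd9, Glo1 and Dnahc8 among its genes, had 47 members, of which 4 lay in repeated sequence. The bin at megabase 46 of chromosome 9 had 35 members, none of them in repeated sequence. Its genes included Sik3 and Bud13 but also the related genes Apoa1, Apoa4, Apoa5 and Apoc3. The Pou4f pattern was found at 9.68% (7.76 to 11.9) of the members in dense bins, against 10.2% in their flanks, and at 42.3% (41.2 to 43.4) of the members outside them. Of the members in dense bins, 52.3% were in repeated sequence. With the dense bins left out, a choice made after seeing the data, the difference of the Pou4f pattern from shared sites was −10.7 points (−12.0 to −9.41).

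**Figure D5:**
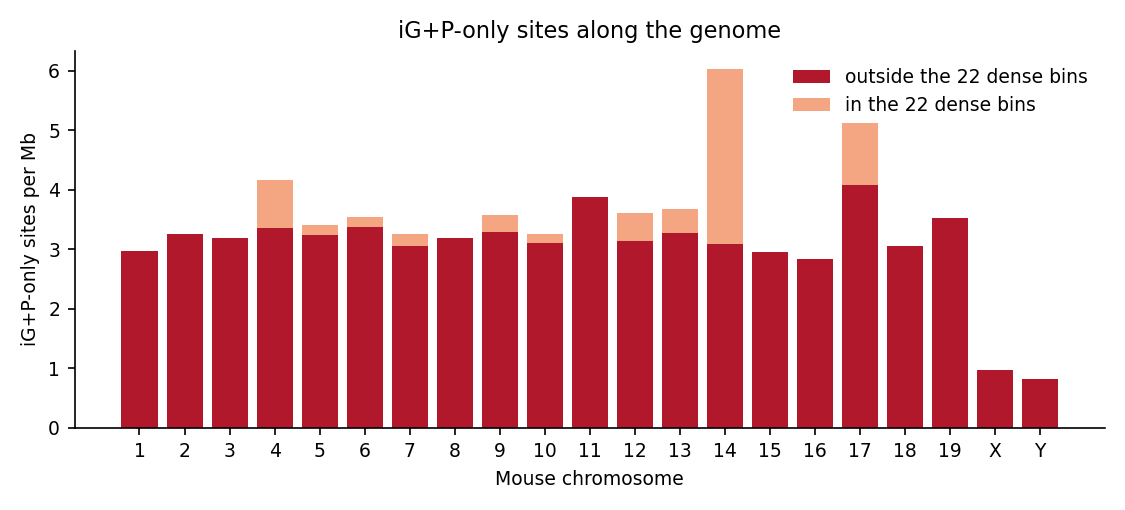
iG+P-only sites per Mb on each mouse chromosome, outside the 22 dense bins (dark) and in them (light). Chromosome 14 reaches 6.03 per Mb, of which 3.08 lie outside dense bins, and chromosome X has 0.972 per Mb.

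Outside the dense bins, members numbered 2.84 to 4.08 per Mb on the autosomes. Chromosome X had 0.972 members and 1.49 shared sites per Mb, so both classes were sparse there.

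Positions were read against annotated genes. The summit was within 1 kb of an annotated transcription start, here called a promoter, at 1225 members, or 13.6% (12.9 to 14.3). It lay in an intron at 44.3%, in an exon at 7.65% and outside genes at 48.1%. Another 17.1% were 1 to 5 kb from a start, 27.0% were 5 to 20 kb away and 13.1% over 100 kb. Promoters took 18.5% of shared sites, 38.3% of iPou4f3-only, 22.5% of iP+A-only and 9.24% of iGPA-only sites.

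The difference from iPou4f3-only sites was −24.7 points (−26.3 to −23.1), with the same direction on 20 of 20 chromosomes. The difference from shared sites was −4.88 points (−5.76 to −3.97), but its sign depended on the definition of the classes. It was 3.42 points (2.52 to 4.33) when summits were joined with 100 bp windows and 1.60 points (0.706 to 2.50) when shared sites with an Atoh1 or Gfi1 peak were left out. Its size also varied with peak strength. In the weakest of the 4 classes of −log10 p it was −16.9 points (−19.0 to −14.9), and in the second −13.1 (−14.8 to −11.4). In the third it was −4.58 points (−6.53 to −2.44), and in the strongest −3.76 (−6.39 to 0.310), an interval that held 0. With 100 bp windows 11775 sites were iG+P-only and 19.8% were at promoters. With 1000 bp windows 6869 were, and 8.39% were at promoters.

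Promoter members had a median G+C content of 60.6% and distal members 41.0%. The SP/KLF pattern GGGCGG, the GC box of promoters, was found at 38.2% of promoter members, 13.8% of their flanks and 3.72% of distal members. The Pou4f pattern was found at 14.0% of promoter members, against 7.80% in their flanks.

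The 3 promoter members with the highest fold enrichment lay at small RNA genes in repeated arrays. On chromosome 8, 14 members lay 230 to 820 bp from models of 5S ribosomal RNA genes, with fold enrichments of 2.47 to 4.71 and a median of 53.25 genome copies. On chromosome 7, 6 members lay 7 to 709 bp from SNORD115 or SNORD116 models, which are small nucleolar RNAs, with fold enrichments of 2.74 to 4.46. None of these 20 had the Pou4f pattern. The 2 highest at 5S genes had fold enrichments of 4.71 and 4.27, and the highest at a SNORD115 model 4.46.

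The 3 members with the highest fold enrichment and a Pou4f pattern lay at 5.70 in an intron of Copz1 on chromosome 15, at 5.25 in an intron of the vomeronasal receptor gene Vmn2r31 on chromosome 7 and at 4.93 in an intron of Ankrd28 on chromosome 14. In the first the nearest match lay 80 bp from the summit, in sequence at the ceiling of the copy count. In the second it lay 108 bp away. In Ankrd28 it lay 11 bp away, in sequence with 6 copies.

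Ankrd28 intron, chr14:32625010-32625260, plus strand of mm9, Pou4f match in capitals: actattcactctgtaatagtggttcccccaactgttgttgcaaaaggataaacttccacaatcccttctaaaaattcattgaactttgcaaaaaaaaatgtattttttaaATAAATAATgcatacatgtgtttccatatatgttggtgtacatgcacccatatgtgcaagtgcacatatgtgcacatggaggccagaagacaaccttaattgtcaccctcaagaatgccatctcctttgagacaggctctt

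The nearest transcription start of a protein-coding gene lay within 100 kb for 7130 members, which spread over 4905 of 22512 genes, or 21.8% of all genes. By the same count 36.6% of all genes had a shared site. Of the 4905 genes, 3630 had 1 member, 814 had 2 and 461 had 3 or more, and 2888 also had a shared site. Genes with a member had a median span of 31.9 kb, against 15.2 kb over all genes. A nearest start does not show which gene a site acts on.

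Of the 5 genes with the most members, all but Chi3l4 had members in dense bins. Glp1r, the receptor of glucagon-like peptide 1, had 20, of which 12 lay in dense bins and 0 had the Pou4f pattern. Cyp3a41b, a cytochrome P450 gene, had 12 and Gm13242 had 11, all in dense bins. Dnahc8, an axonemal dynein gene beside Glp1r, had 11, also in dense bins. Most of the 20 Glp1r members lay inside the span of Dnahc8, up to 99913 bp from the Glp1r start. The nearest start thus divided members of the same stretch between these neighbouring genes. Chi3l4, of the chitinase-like family, had 10, none of them in dense bins, with 2 that had the Pou4f pattern.

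Among 32 hair cell genes, 12 had a member, or 37.5%, against 21.8% of all genes. The genes of this list had a median span of 42.8 kb, and 21 of them, or 65.6%, had a shared site, against 36.6% of all genes. Pcdh15, a protein of the tip links between stereocilia, had 5 members, of which 4 had the Pou4f pattern, with fold enrichments of 2.63 to 2.96. The gene runs from position 72562090 to 74112482 of chromosome 10, far longer than the median of the list. Its member with the highest fold enrichment lay outside the gene, 88463 bp from the nearest start. Atoh1 had 3 members, with fold enrichments of 2.74 to 2.96, and 1 of them had the pattern. Grxcr1, a regulator of stereocilia growth, had 3, none with the pattern, and the highest of these had a fold enrichment of 3.94.

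Myo6, the unconventional myosin of the stereocilia base, had 2 members. Gfi1 had 1, at a fold enrichment of 2.96 and 18967 bp from its nearest start. Tmc2, of the mechanotransduction channel, had 1 at 3.17 with the pattern. The Gfi1 and Myo6 members with the pattern are shown in the searched window because they lie at the loci of hair cell genes, and both were chosen after the values were seen.

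Near Gfi1, intergenic, chr5:108133884-108134134, plus strand of mm9: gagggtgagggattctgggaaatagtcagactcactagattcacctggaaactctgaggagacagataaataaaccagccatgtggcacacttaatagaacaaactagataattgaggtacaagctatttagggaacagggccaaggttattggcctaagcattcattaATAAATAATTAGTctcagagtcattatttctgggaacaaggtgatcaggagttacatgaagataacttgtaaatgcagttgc
Near Myo6, Senp6 intron, chr9:79990882-79991132, plus strand of mm9: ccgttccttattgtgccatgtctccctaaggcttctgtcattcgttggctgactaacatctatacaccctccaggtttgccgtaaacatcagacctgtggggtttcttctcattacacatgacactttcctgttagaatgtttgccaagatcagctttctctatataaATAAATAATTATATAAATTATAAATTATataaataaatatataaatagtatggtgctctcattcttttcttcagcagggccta

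In both the match nearest to the summit lay 47 or 48 bp from it. The Gfi1 member had a −log10 p of 6.84 and the Myo6 member 6.32, against a median of 5.80 and an upper quartile of 6.84 over all members.

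The other lists were read in the same way, beside 21.8% of all genes with a member and a median span of 15.2 kb over all genes. Median spans were 54.7 kb for neuronal and 10.3 kb for Notch pathway genes. They were 6.55 kb for pluripotency genes and 4.11 kb for mesoderm and endoderm genes. Of 26 axon guidance genes, 12 had a member (46.2%), and their median span was 201 kb. Slit3, Robo1, Epha4 and Efnb2 had 3 members each, and those of Slit3, a secreted repellent, had fold enrichments of 2.30 to 2.74. Of 22 neuronal genes 6 had a member (27.3%), among them Ntrk3, a neurotrophin receptor, with 2 that both had the Pou4f pattern. Of 18 Notch pathway genes 6 had a member (33.3%). The ligand gene Dll1 had 2, both with the pattern, and one of these lay 37 bp from its start at a fold enrichment of 3.28.

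Of 15 annotated pluripotency genes 6 had a member, or 40%. Nanog had 5, at fold enrichments of 2.41 to 2.63, none with the Pou4f pattern. Sox2 had 2, at 3.06 with the pattern and at 2.63 without it. Of 15 mesoderm and endoderm genes 5 had a member (33.3%), with 3 each at Eomes and Sox17. In each of the 6 lists the share of genes with a shared site was also above that of all genes, at 46.7% to 76.9%.

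Members were not always alone. Within 300 to 1000 bp of the member's summit, 1147 members, or 12.7%, had a kept peak of another Pou4f3 list, and 2012, or 22.3%, had one of any other list. The Pou4f pattern was found at 15.6% (13.6 to 17.8) of the 1147 and at 42.7% (41.6 to 43.8) of the others, and 34.7% of the 1147 were at promoters. At the edge of the rule, 140 iG+P peaks had the nearest summit of another list within the 20 bp beyond the joining distance of 300 bp, and 162 had it within the 20 bp below it. Both groups had a median fold enrichment of 2.74 and a median −log10 p of 5.80.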

How the data were processed

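The 9 peak lists rest on 29 libraries, 17 of them ChIP and 12 input. Groups came from the sample titles. Per the study's methods and the submitters' processing notes, the authors aligned reads to mm9 with Bowtie2, dropped duplicate reads, poorly mapped reads and those in blacklisted regions, and called peaks with MACS2 on merged ChIP replicates against merged input. The deposited fold enrichment is a ratio of ChIP to local background, with 1 added to each. The deposited −log10 p-value and −log10 q-value are those of the caller at the summit. The signal column of the deposited summit lists is not defined in the sources used here. Times 301 it was a whole number (tolerance 0.0001) for over 99.9% of the peaks in each list, with a lowest value of 16, so it appears to count fragments in 301 bp with a minimum of 16. It was used for no result. Between 14.1% and 31.5% of the called Pou4f3 peaks were absent from these lists.

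The members, gene lists and patterns were chosen with earlier results of these data known. Fragments and local background were derived by inverting the fold and −log10 p (tolerance 0.001), which gave a value for at least 99.8% of the Pou4f3 peaks. Total read counts are not given in the files used here, so depth per library is unknown and only the usual background stands for it. Patterns were searched on both strands in NCBIM37, the same assembly as mm9, in 250 bp at the summit of the strongest peak of a site and in 2 windows 1000 bp away. The 21 patterns can overlap, since the Pou4f pattern holds ATTAAT and TAATTA. Genome copies were counted for words of 16 letters up to a fixed ceiling, and 20 or more was called repeated, a limit set after the data were seen. Starts were those of all transcripts of GENCODE M1. The lists of genes used starts of protein-coding genes by that annotation or by symbol in RefSeq. A tandem repeat had at least 80% of 100 bp equal to the base 1 unit of up to 12 bp further on.

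Shares have Clopper-Pearson 95% intervals and differences have Newcombe intervals. Neighbouring sites are not independent, so sites were given no p-value. Named sites were, on chromosomes 1 to 17, 19 and X outside tandem repeats, the 3 members with the highest fold with the Pou4f pattern, the 3 without, the 3 at promoters and the 2 with the highest −log10 p and a Gfi1 pattern. Named genes were the 5 with the most members and the listed genes. Further examples are marked as chosen later. Scripts (Python 3.11.15, numpy 2.4.6, pandas 2.3.3, scipy 1.17.1) were tested on made-up sites and windows with known answers. Alternatives changed the joining window, the filters on members, the sequence window, the patterns and the starts.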

Additional observations from a re-analysis of the deposited data

Results flagged for a closer look

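Of the 9017 iG+P-only sites, 6.72% (606; 95% interval 6.21 to 7.26, Clopper-Pearson) had a peak within 300 bp that the authors called in another Pou4f3 list but that the summit lists leave out. This was noted because the left-out peaks took no part in the choice of members and entered the analysis only as an alternative. There is no control list for this share. By list it was 4.36% for iP+A, 2.15% for iPou4f3 and 1.12% for iGPA, and over all 8 other lists 12.8% of members had such a peak. The Pou4f pattern was found at 8.42% (6.33 to 10.9) of the 606 members and at 41.5% (40.4 to 42.5) of the rest, and 26.6% of the 606 were at promoters against 12.7% of the rest. Without the 1155 members that had a left-out peak of any of the 8 lists, 7862 were left. The difference of the Pou4f pattern was then −6.56 points (−7.86 to −5.26) from shared sites and 15.0 points (13.3 to 16.7) from iPou4f3-only sites, against −11.3 and 10.3 points with them. Sites of this kind were taken out of the members only, and the shared and iPou4f3-only sites stayed whole, at 50.5% and 28.9% with the pattern. The filter that removed the left-out peaks from the summit lists is not stated in the sources used here.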

How the results depend on the processing

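No paired analysis was possible because peaks were called on merged replicates and no list has a value per replicate. Over 17 settings, 3 of them added after seeing the data (dense bins, repeated sequence or promoters left out), 127 of 140 values kept their call, that is whether the interval excluded 0 and, where it did, the direction, or, for the number of sites, stayed within 1.5 times. Among these, 5 Gfi1 differences near 0 changed sign with intervals that held 0, from −0.579 to 0.237 points. The number of sites fell to 449 at a −log10 p of 10 or more. It fell to 2029 when the iG+P list alone was cut to 17082 peaks and the other lists were left whole. Otherwise it ranged from 6792 to 11775. The difference of the Pou4f pattern from shared sites was negative and excluded 0 in all 14 settings, from −24.6 points at a −log10 p of 10 or more to −2.98 with no mismatch. Against iPou4f3-only sites it was 17.2 points without repeated sequence, 6.42 in a 100 bp sequence window and 2.04 with no mismatch. Against iP+A-only sites it was 3.67 with no mismatch, and against iGPA-only sites −7.75 without repeated sequence. At a −log10 p of 10 or more, the interval held 0 for the Pou4f pattern against iPou4f3-only (6.18 points) and iP+A-only sites (11.4) and for promoters against shared sites (−2.11), where 449 or fewer members were compared. With no mismatch the Pou4f difference from iGPA-only sites was −0.931 points and held 0. With promoters left out the Pou4f difference from iPou4f3-only sites turned to −0.341 points. The 6-letter Gfi1 core gave 1.27 points against shared sites, opposite in sign to the longer pattern, and 3.16 against iPou4f3-only sites. Without shared sites that had an Atoh1 or Gfi1 peak, the differences from shared sites turned to 2.02 points for the E-box and 1.60 for promoters. With 100 bp windows the promoter difference turned to 3.42 points. The tandem repeat difference, 0.537 points, was 0.0253 without repeated sequence. The causes were not tested. The median member had 24 fragments at its summit, and how many of these weak sites were just under the threshold of another list was not tested.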
